A study of Mus musculus with 16 samples.

Results

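The T cell receptor loci were examined in deposited ATAC-seq peak lists of mouse CD8+ T cells. ATAC-seq marks open chromatin by the places where a transposase inserts sequencing adapters. The peaks of 16 libraries were merged where they overlapped by at least 1 bp, which gave 525048 regions. Regions lying wholly inside the receptor loci of GRCm38 were kept, and there were 396 of them. The windows were chr14:52400001-54250000 for the alpha and delta chains, chr6:40850001-41600000 for the beta chain and chr13:19150001-19400000 for the gamma chain. They held 193, 156 and 47 regions, and 2 further regions that crossed a window edge were left out.

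The 16 libraries fell into 4 groups of equal size by genotype (WT or TPdh-/-) and by cell type (TE or TM). TE are effector cells and TM are memory cells, obtained in culture with IL-2 or IL-15 after activation. TPdh-/- mice carry a floxed Pdha1, the X-linked gene of the E1 alpha subunit of the pyruvate dehydrogenase complex, and a Cre transgene driven by the Cd4 promoter. The labels give the WT genotype as TPdh+/+, and whether WT mice carried Cre was not stated. Male and female mice of 8 to 12 weeks were used in the study, and the sex of each library was not given. The methods describe differentiation from OT-I cells activated with ovalbumin peptide, whereas the labels of these libraries name no receptor transgene. OT-I cells express a rearranged transgenic receptor of the V alpha 2 and V beta 5 families, so a fragment from a transgene and one from the endogenous segment cannot be told apart in a peak list. The labels do not tie the libraries of a group to separate mice, and the methods describe measurements of the study in general as made on separate samples, so p-values measure the spread between these libraries, which may be technical.

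Each receptor locus carries arrays of variable (V), joining (J) and, in beta and delta, diversity (D) segments beside constant (C) exons. The RAG1 and RAG2 recombinase joins one segment of each kind in developing thymocytes, guided by recombination signals next to the segments. Promoters upstream of V and D segments and enhancers near the constant exons, E alpha between Trac and Dad1 and E beta between Trbc2 and Trbv31, open the chromatin for this step and for later transcription. The delta locus lies inside the alpha locus, so rearrangement of alpha segments deletes it. The annotation of GENCODE release M21 listed 136 V, 2 D, 62 J and 2 C segments in alpha/delta, 35 V, 2 D, 14 J and 2 C segments in beta, and 7 V, 4 J and 4 C segments in gamma.

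Sequences of 300 bases at the highest summit of 7 regions are given because the results turn on these sites. They were read from the forward strand of GRCm38 as distributed by RefSeq. Capitals mark the motifs that were searched on both strands, which are CACAGTG (heptamer of the recombination signal), TGTGGT (RUNX), GGAAGT (ETS), CTTTGA (TCF/LEF), TGACGTCA (CRE), TGANTCA (AP-1) and AGGGGGC (core of the CTCF motif). A match is only a run of letters. The region after Trac (chr14:54227569-54227868) and the region before Dad1 (chr14:54233422-54233721) lie in the interval that holds E alpha. The region after Trbc2 (chr6:41554390-41554689) lies in the interval that holds E beta. The region before Trbv12-1 (chr6:41113193-41113492) lies beside a V beta 5 family segment, and the region before Trbd1 (chr6:41532687-41532986) lies at a D segment. The region after Tcrg-C2 (chr13:19304277-19304576) follows a gamma constant gene. The region at Stard3nl (chr13:19395761-19396060) is the promoter of a neighbouring gene inside the gamma window.
Region after Trac: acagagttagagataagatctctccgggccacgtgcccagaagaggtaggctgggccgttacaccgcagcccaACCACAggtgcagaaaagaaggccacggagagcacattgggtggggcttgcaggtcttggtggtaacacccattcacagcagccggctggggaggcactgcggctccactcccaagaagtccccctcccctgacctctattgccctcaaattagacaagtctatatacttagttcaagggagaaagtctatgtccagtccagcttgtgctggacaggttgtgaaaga
Region before Dad1: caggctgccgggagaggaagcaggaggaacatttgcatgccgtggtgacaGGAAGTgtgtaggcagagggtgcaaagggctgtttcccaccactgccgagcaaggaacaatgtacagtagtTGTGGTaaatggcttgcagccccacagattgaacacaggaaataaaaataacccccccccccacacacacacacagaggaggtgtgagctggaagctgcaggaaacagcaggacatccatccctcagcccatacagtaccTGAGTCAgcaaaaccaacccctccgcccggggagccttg
Region after Trbc2: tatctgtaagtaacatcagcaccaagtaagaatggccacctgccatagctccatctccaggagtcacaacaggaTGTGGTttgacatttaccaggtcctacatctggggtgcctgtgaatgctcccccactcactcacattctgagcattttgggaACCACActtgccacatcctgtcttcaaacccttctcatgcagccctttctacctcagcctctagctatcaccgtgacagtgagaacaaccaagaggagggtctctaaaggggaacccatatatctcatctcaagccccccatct
Region before Trbv12-1: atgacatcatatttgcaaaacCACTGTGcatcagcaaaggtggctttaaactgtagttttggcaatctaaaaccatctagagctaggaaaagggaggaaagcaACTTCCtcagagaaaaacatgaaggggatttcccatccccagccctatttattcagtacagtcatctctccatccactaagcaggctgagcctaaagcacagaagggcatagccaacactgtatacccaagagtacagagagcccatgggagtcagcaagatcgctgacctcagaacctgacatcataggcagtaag
Region before Trbd1: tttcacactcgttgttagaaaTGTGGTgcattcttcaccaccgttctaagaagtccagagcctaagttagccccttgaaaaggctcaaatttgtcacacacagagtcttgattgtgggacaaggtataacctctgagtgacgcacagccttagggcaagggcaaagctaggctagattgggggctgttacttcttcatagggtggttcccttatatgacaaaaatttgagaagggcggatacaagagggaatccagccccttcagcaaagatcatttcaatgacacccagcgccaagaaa
Region after Tcrg-C2: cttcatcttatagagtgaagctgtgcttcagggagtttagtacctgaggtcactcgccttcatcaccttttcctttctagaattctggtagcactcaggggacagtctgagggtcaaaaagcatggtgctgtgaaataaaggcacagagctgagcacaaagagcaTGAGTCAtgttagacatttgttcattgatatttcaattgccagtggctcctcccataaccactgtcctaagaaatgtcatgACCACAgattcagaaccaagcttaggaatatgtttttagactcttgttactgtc
Region at Stard3nl: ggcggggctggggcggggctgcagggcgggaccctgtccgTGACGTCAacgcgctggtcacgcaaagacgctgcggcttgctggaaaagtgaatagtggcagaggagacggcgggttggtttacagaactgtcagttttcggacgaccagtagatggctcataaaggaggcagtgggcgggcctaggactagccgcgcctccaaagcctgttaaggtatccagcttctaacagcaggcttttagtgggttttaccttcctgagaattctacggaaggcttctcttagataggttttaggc

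The region after Trac held 1 RUNX motif, and the region before Dad1 held 1 RUNX, 1 ETS and 1 AP-1 motif. The region after Trbc2 held 2 RUNX motifs, and the region before Trbd1 held 1. The region before Trbv12-1 held 1 ETS motif and 1 heptamer, the region after Tcrg-C2 held 1 RUNX and 1 AP-1 motif, and the region at Stard3nl held 1 CRE motif. Over all 396 regions of the loci, the RUNX motif occurred in 80 (20.2%, against 20.5% of all 525048 regions), ETS in 76 (19.2% against 16.1%), TCF/LEF in 70 (17.7% against 19.7%) and AP-1 in 35 (8.84% against 8.35%). The heptamer occurred in 27 (6.82% against 7.47%), the CTCF core in 11 (2.78% against 2.98%) and CRE in 1 (0.253% against 0.216%). Among the 55 regions held by at least 2 libraries, RUNX occurred in 16 (29.1%, against 20.4% of all regions held by at least 2 libraries) and ETS in 15 (27.3% against 16.6%). In the same 55, TCF/LEF occurred in 8 (14.5% against 16.9%), the heptamer in 6 (10.9% against 6.90%), AP-1 in 4 (7.27% against 7.60%), the CTCF core in 2 (3.64% against 4.52%) and CRE in 1 (1.82% against 0.551%). These shares are descriptions without a test, and the motifs can overlap.

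A library holds a region when one of its peaks lies in it. The shortest list, of WT TE replicate 3, had 2290 peaks and the longest, of TPdh-/- TM replicate 2, had 86637. Depth was read from the background coverage, the fragments expected over a base outside enriched sites, which ranged from 0.173 to 1.55. It was highest in the 3 WT TE libraries with the shortest lists, where a summit needed at least 7 to 9 fragments to be called. The smallest called summit had 3 to 5 fragments in the other libraries. An uncalled site is therefore a site below the threshold of that library and is not shown to be closed chromatin. Promoters of 8 T cell genes were held in 28 of 128 combinations of gene and library (21.9%, against 20.3% for all protein-coding genes), and 1 gene of the list, Cd2, was held by none. Promoters of 3 B cell genes were held in 3 of 48 combinations (6.25%) and of 4 myeloid genes in 6 of 64 (9.38%), with Cd79a and Lyz2 at 0. Of the genes that mark CD4 T cells, Cd4 was held by none and Zbtb7b, a regulator of the CD4 lineage, by 3 libraries (3 of 32 combinations, 9.38%). The lists thus marked T cell promoters at close to the share of all promoters. A peak at the start of Pdha1 was held by 6 libraries, 3 of them TPdh-/- TM, and a promoter outside the floxed exon does not check the deletion.

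Peaks were sparse in alpha/delta, and in beta their mean density exceeded that of the genome. Relative density is the number of peaks per Mb in a locus divided by that in the genome of the same library, so 1 is the genome level. It was 0.465 ± 0.212 (SD, n = 16) in alpha/delta and lay below 1 in 16 of 16 libraries (exact sign-change test over libraries, two-sided, p = 3.05e-05, the smallest possible, adjusted over 3 loci p = 9.16e-05). It was 1.32 ± 0.552 (SD, n = 16) in beta and lay above 1 in 13 of 16 libraries (exact sign-change test, adjusted p = 0.0110). It was 1.79 ± 2.05 (SD, n = 16) in gamma and lay above 1 in 11 of 16 libraries (exact sign-change test, adjusted p = 0.0210). In the pooled set, alpha/delta had 104 regions per Mb, beta 208 and gamma 188, against 198 in the genome. By group the beta mean was 1.69 in WT TE and 1.49 in TPdh-/- TE, and near 1 in WT TM (1.07) and TPdh-/- TM (1.05).

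WT TE replicate 3 stood apart, with 5 peaks in the 3 loci, and its values were 3.08 in beta and 9.25 in gamma. Without it, the excess over 1 was 0.206 instead of 0.323 in beta (exact sign-change test, adjusted p = 0.0221) and 0.295 instead of 0.793 in gamma (exact sign-change test, adjusted p = 0.0421). With limits 10 kb outside the annotated segments, the gamma excess was 0.144 (exact sign-change test, adjusted p = 0.898). These limits leave out both flanks of the gamma window with 30 peaks, 12 of them in the region at the Stard3nl promoter, and the part of that promoter alone was not tested. Against the rest of the same chromosome as the base, the excess was 0.259 in beta (exact sign-change test, adjusted p = 0.0673) and 0.887 in gamma (exact sign-change test, adjusted p = 0.0574).

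Within libraries, beta exceeded alpha/delta by 0.858 and gamma exceeded alpha/delta by 1.33, both in 16 of 16 libraries (exact sign-change tests, adjusted p = 4.58e-05 for each). Without WT TE replicate 3 the second difference was 0.841. Beta and gamma differed by -0.470 (exact sign-change test, adjusted p = 0.251), and the difference was -0.0898 without WT TE replicate 3 and -1.45 in the equal-sized lists of 2290 peaks per library.

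**Figure D1:**
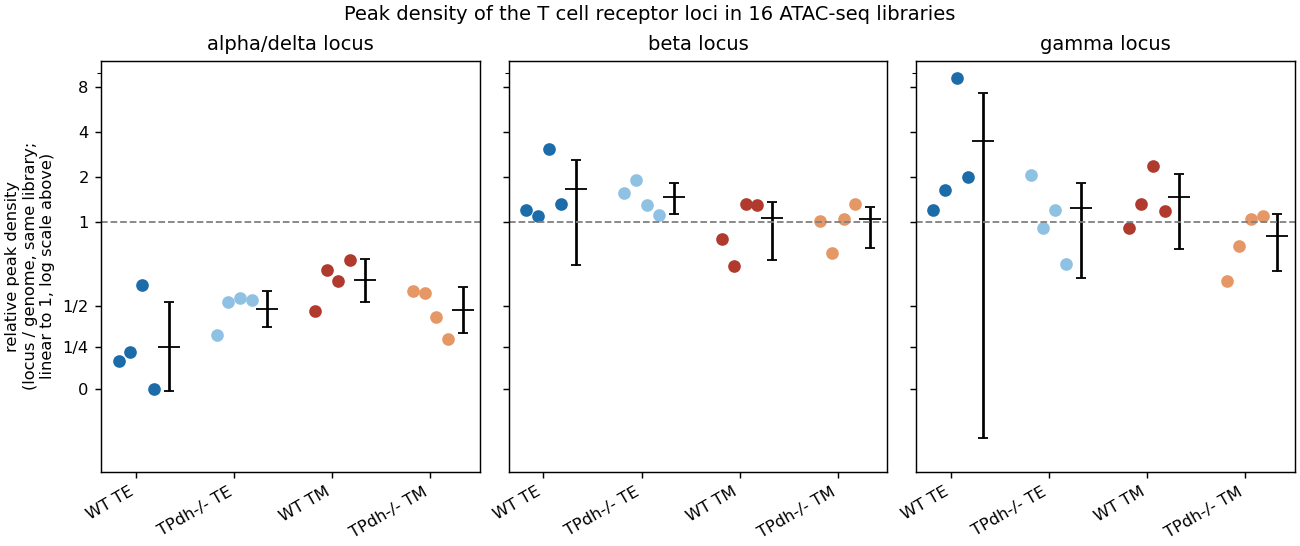
Relative peak density (vertical axis, linear up to 1 and logarithmic above) in each library (points) of the 4 groups, with the mean and SD of each group beside them and the genome level at 1 as a dashed line. All 16 alpha/delta values lie below the line, from 0 to 0.773, and WT TE replicate 3 is the highest point in beta (3.08) and gamma (9.25).

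Repeated sequence differed between the loci. Reads that aligned to more than 1 place had been removed before peak calling, and 60.7% of the alpha/delta window consisted of 50-base words found once in the locus, against 88.8% in beta and 91.0% in gamma. Taking only that sequence as the length, alpha/delta stayed below the genome level by a difference of -0.235 (exact sign-change test, adjusted p = 0.0145), while the unadjusted length gave -0.535. The excess was then 0.490 in beta (exact sign-change test, adjusted p = 0.00128) and 0.969 in gamma (exact sign-change test, adjusted p = 0.00476). The genome base kept its full assembled length in this alternative.

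The duplicated parts of the alpha/delta V array held the fewest regions. The C57BL/6 array carries copies whose symbols have a d or an n after the family number. The span of the d copies held 12 regions over 399 kb (30.1 per Mb) and that of the n copies 12 over 284 kb (42.3 per Mb), where 27.0% and 21.9% of the sequence was unique within the locus. The stretch from Trav1 to the first d copy, which also holds olfactory receptor genes, had 184 regions per Mb, and the stretch from the last n copy to Trdd1 had 93.5. Per Mb of unique sequence these 4 stretches had 111, 193, 211 and 121 regions in the order d copies, n copies, first and last stretch. No library exceeded the genome level in the d copies, the n copies or the last stretch.

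From Traj61 onwards alpha/delta had more regions per Mb than in its V array. From Traj61 to the end of Trac there were 30 regions over 69.2 kb (434 per Mb), and relative density was 2.00 ± 1.38 (SD, n = 16), above 1 in 12 libraries and 0 in 4. The interval from Trac to Dad1 that follows had 5 regions over 11.3 kb (444 per Mb) and 12 peaks, with a relative density above 1 in 9 libraries and of 0 in 7. The delta stretch from Trdd1 to Traj61 had 7 regions over 41.5 kb, with no peak in 10 libraries. Each base was then assigned to its nearest segment. Relative density was 2.01 ± 1.86 (SD, n = 16) around D, J and C segments and 0.331 ± 0.208 (SD, n = 16) around V segments of alpha/delta. The difference was 1.68 and positive in 15 libraries, with 1 library at 0 in both (exact sign-change test, adjusted p = 0.000183). It was 1.15 for contiguous blocks, the V array against Trdd1 to the end of Trac (exact sign-change test, adjusted p = 0.000488), and 1.22 without WT TE replicate 3, whose single peak gave 8.49. With only peaks of −log10 q of at least 5 it was 0.850 (exact sign-change test, adjusted p = 0.0312). When each list was cut to its 2290 strongest peaks by q-value, the length of the shortest list, few peaks were left and the difference was 1.86 (exact sign-change test, adjusted p = 0.375).

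**Figure D2:**
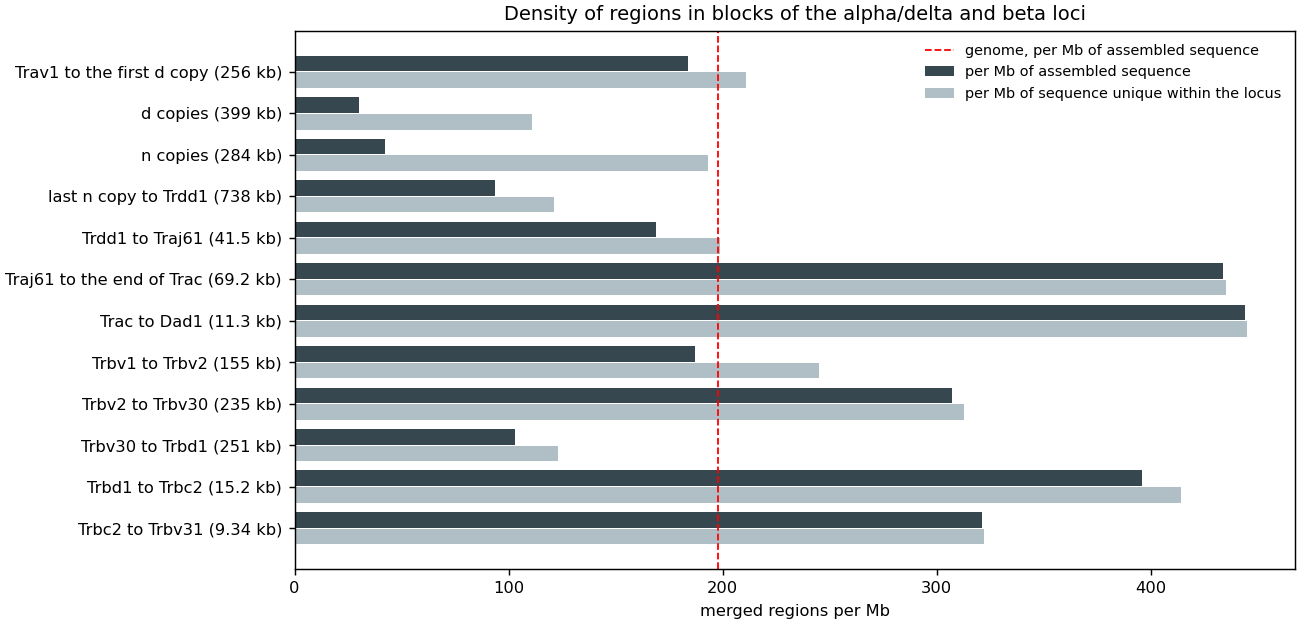
Merged regions per Mb (horizontal axis) in 12 consecutive blocks of the alpha/delta and beta loci, per Mb of assembled sequence (dark bars) and per Mb of sequence unique within the locus (light bars), with the genome level of 198 as a dashed line. The d and n copies reach 30.1 and 42.3 regions per Mb, and the block from Traj61 to Trac reaches 434.

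In beta part of the V array was dense as well. From Trbv2 to Trbv30 there were 72 regions over 235 kb (307 per Mb), and relative density was 1.82 ± 0.970 (SD, n = 16), above 1 in 15 libraries. The stretch before it, from Trbv1 to Trbv2, had 29 regions over 155 kb (187 per Mb). Its relative density was 0.806 ± 0.779 (SD, n = 16), above 1 in 5 libraries and 0 in 5. The stretch from Trbv30 to Trbd1, which holds trypsinogen genes, had 103 regions per Mb. The 15.2 kb from Trbd1 to Trbc2 had 6 regions (396 per Mb) and 8 peaks, with a relative density above 1 in 7 libraries and of 0 in 9. The 9.34 kb from Trbc2 to Trbv31 had 3 regions (321 per Mb) and 11 peaks, with a relative density above 1 in 11 libraries and of 0 in 5. By nearest segment, D, J and C lay below V by a difference of -0.768, in 13 of 16 libraries (exact sign-change test, adjusted p = 0.0125). That assignment gives part of the trypsinogen stretch to Trbd1 and the E beta interval in part to Trbv31. With contiguous blocks the difference was 0.184 (exact sign-change test, adjusted p = 0.697), so its direction depended on the territories. In gamma, J and C differed from V by -0.984 (exact sign-change test, adjusted p = 0.547), and by 0.0338 without WT TE replicate 3. With only peaks of −log10 q of at least 5 that difference was 2.25 (exact sign-change test, adjusted p = 0.0234). It was 0.308 in equal-sized lists, so its direction depended on the setting.

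The immunoglobulin loci Igh, Igk and Igl, which T cells do not fully rearrange, were compared over all libraries. Relative density was 0.807 ± 0.355 (SD, n = 16) over the 3 receptor loci and 0.593 ± 0.233 (SD, n = 16) over the immunoglobulin loci, and the difference of 0.214 was positive in 11 of 16 libraries (exact sign-change test, p = 0.0165). Without WT TE replicate 3, which held no peak in the immunoglobulin loci, it was 0.0925 (exact sign-change test, p = 0.0330). It was 0.410 per unique length (exact sign-change test, p = 9.16e-05) and 0.544 with only peaks of −log10 q of at least 5 (exact sign-change test, p = 0.00345). In the equal-sized lists it was 0.403 (exact sign-change test, p = 0.0674). By group, the means of receptor and immunoglobulin loci were 0.918 and 0.264 in WT TE, on 25 and 31 peaks, and 0.812 and 0.741 in TPdh-/- TE. They were 0.832 and 0.661 in WT TM, and 0.666 and 0.708 in TPdh-/- TM, so in the last group the immunoglobulin loci had the higher mean. The WT TE mean of the receptor loci includes 2.03 in replicate 3, while the other WT TE libraries had 0.526 to 0.580.

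Most regions of the loci were seen once. Of the 396 regions, 341 (86.1%) were held by a single library, 55 by at least 2 (13.9%, against 13.1% of all regions) and 12 by at least 4 (3.03%, against 1.76% of all regions). By locus, 2 alpha/delta regions, 7 beta regions and 3 gamma regions were held by at least 4 libraries. Summits lay in an exon in 19 regions, in an intron in 62 and between genes in 315. Median GC content at the summit was 43.0% in the loci and 43.7% over all regions, and the median width was 211 and 210 bp. The highest summit of the loci had 25 fragments, and the median region had 4.

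**Figure D3:**
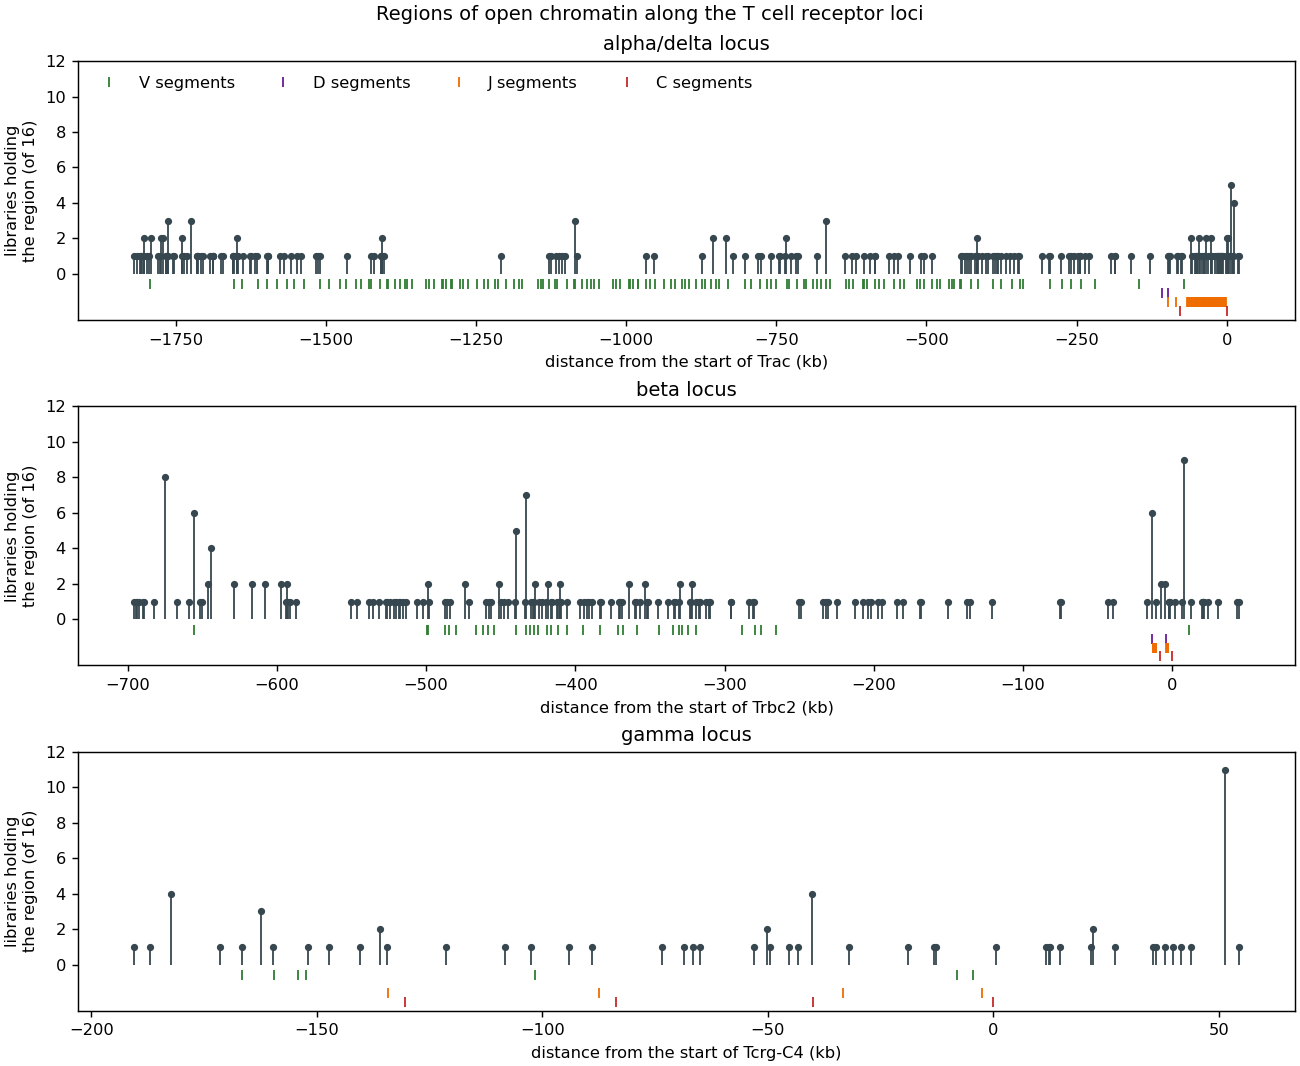
Number of libraries (of 16, vertical axis) that held each of the 396 regions, against its distance in kb from the start of Trac, Trbc2 or Tcrg-C4, with annotated V, D, J and C segments as ticks under the axis. The tallest regions are the Stard3nl promoter (11 libraries) beyond the gamma segments, the region after Trbc2 (9) and, in alpha/delta, the region after Trac (5).

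At the E beta interval, a peak was called in 11 of 16 libraries, 4 of them WT TE. The interval from Trbc2 to Trbv31 (chr6:41548353-41557690) held 3 regions. The main one, chr6:41554170-41554976, was held by 9 libraries and was the receptor region held by the most. Its summit pileup, the number of fragments over the summit base, was 21, 11, 21 and 22 in WT TE replicates 1 to 4, and 8 in TPdh-/- TE replicate 3. It was 7 in WT TM replicate 1, and 13, 8 and 11 in TPdh-/- TM replicates 2, 3 and 4. All 4 WT TE libraries held the region, against 1 TPdh-/- TE, 1 WT TM and 3 TPdh-/- TM libraries. The pileup divided by the background coverage of the library was 14.2 to 18.6 in the WT TE libraries and 19.7 to 59.1 in the other 5. This ratio exists only for called peaks, and the lowest ratio that could be called differed between libraries, so no order of the groups is read from it. The local background around the peak was raised to between 1.37 and 3.15 times the coverage of the library. At −log10 q of at least 5 the region was held by 7 libraries, 3 of them WT TE, and in the lists cut to 2290 peaks by 4, again 3 of them WT TE.

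At D beta, the region before Trbd1 (chr6:41532593-41533284) was held by 6 libraries, 2 of them WT TE. Its highest summit lay 364 bp from Trbd1, where the promoter of this D segment is known to lie. The pileup was 13 and 9 in WT TE replicates 1 and 2, 6 in TPdh-/- TE replicate 3, 7 in WT TM replicate 1, and 7 and 11 in TPdh-/- TM replicates 3 and 4. Trbd2, the other D segment, had a peak within 1000 bp of its start in 2 libraries, both WT TM. Of the 14 J beta segments 11 had one in at least 1 library, a share that was not tested against that of protein-coding genes (all but 26.5%), and Trbj1-1 had the most with 4. Neighbouring J segments lie close enough to share a peak. Of the constant genes, Trbc1 had a peak at its start in 1 library and Trbc2 in none, while the median protein-coding gene had one in 2 libraries. The share of sequence unique within the locus was 85.0% around both starts.

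Starts of V segments were searched for peaks. A peak lay within 1000 bp of the start of 24 of 35 V beta segments (68.6%) in at least 1 library, and of 23 of 136 V segments of alpha/delta (16.9%), counts that were not tested. Within the same distance of their starts, 26.5% of 21938 protein-coding genes had a peak in no library. In beta these were 18 of 22 genes and 6 of 13 pseudogenes, and in alpha/delta 18 of 115 genes and 5 of 21 pseudogenes. Around the alpha/delta V segments with a peak, the median share of sequence unique within the locus was 82.3%, and around those without one it was 28.4%. In beta both medians were 100%. The effect of read mapping on these counts was not tested.

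The V beta segment with a peak in the most libraries belonged to the V beta 5 family. The region before Trbv12-1 (chr6:41112970-41113901) was held by 7 libraries. Its highest summit, 207 bp from the segment, had the highest raw pileup of all 396 regions. Divided by the background coverage of its library this pileup gave 17.6, while the region at Trav11n reached 75.3 in TPdh-/- TM replicate 4. The pileup before Trbv12-1 was 25 in WT TE replicate 3, 7 in TPdh-/- TE replicate 3, 6 in WT TM replicate 1 and 9 in WT TM replicate 4. It was 6, 8 and 8 in TPdh-/- TM replicates 2, 3 and 4. Its libraries came from all 4 groups, and the local background was 1.00 to 2.76 times the coverage of the library. Counting every peak within 1000 bp of the start, Trbv12-1 had one in 8 libraries, Trbv12-2 in 3 and Trbv12-3, a pseudogene, in 1. Trbv11, also a pseudogene, had one in 6 libraries, 4 of them TPdh-/- TE, and Trbv1 in 6. At Trbv1, the outermost V segment, the region chr6:40890628-40891804 was held by 6 libraries with pileups of 7 in TPdh-/- TE replicate 4, 7 and 9 in WT TM replicates 1 and 4, and 10, 6 and 7 in TPdh-/- TM replicates 1, 3 and 4. No WT TE library held it.

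The V alpha 2 family had 1 segment with peaks. Of the 9 Trav14 segments, Trav14-1 had a peak within 1000 bp in 3 libraries, with a pileup of 6 in TPdh-/- TE replicate 1, 7 in WT TM replicate 1 and 6 in TPdh-/- TM replicate 1. The other Trav14 segments had none in any library, and 4 of them, Trav14d-1, Trav14d-2, Trav14n-1 and Trav14n-2, had only 0.200% of unique sequence around the start. The V segment of alpha/delta with the highest pileup within 1000 bp of its start was the pseudogene Trav11n, whose region chr14:53134493-53135060 reached 5 in TPdh-/- TE replicate 4, and 3 and 14 in TPdh-/- TM replicates 2 and 4.

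At the E alpha interval, 2 regions led, held by 5 and 4 libraries. The interval from Trac to Dad1 (chr14:54224207-54235478) held 5 regions and a peak in 9 libraries, of which 3 were TPdh-/- TM and 2 came from each of the other groups. The region after Trac, chr14:54227201-54228043, lay 3513 bp past the gene. Its pileup was 6 in TPdh-/- TE replicate 3, 8 and 9 in WT TM replicates 1 and 4, and 6 and 7 in TPdh-/- TM replicates 1 and 2. No WT TE library held it, and no library reached a −log10 q of 5 there. The region before Dad1, chr14:54233414-54233794, had pileups of 7 and 15 in WT TE replicates 2 and 3, 19 in TPdh-/- TE replicate 4 and 12 in TPdh-/- TM replicate 3. The pileup of 19 was the highest of alpha/delta. The 2 regions shared no library, and this was not tested against chance. Their local background was 1.25 to 2.11 times the coverage of the library.

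Of the 62 J segments of alpha/delta, 36 had a peak within 1000 bp in at least 1 library, against all but 26.5% of protein-coding genes, a comparison without a test. The J segment with the most was Traj26, in 4 libraries. No peak of the 16 libraries lay within 1000 bp of Trdd1, Trdd2 or the start of Trdc, and none lay between Trdv5 and Traj61. The interval between Trdj2 and Trdc, where the delta enhancer lies, had 2 regions held by 1 TPdh-/- TM library each.

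The gamma locus was led by its neighbour. Stard3nl, a gene for a sterol-binding membrane protein, starts inside the window, and the region at its promoter (chr13:19395202-19395994) was held by 11 libraries, all 4 WT TE among them. The highest pileup in each was 14, 11, 18 and 10 in WT TE replicates 1 to 4, 4 and 8 in TPdh-/- TE replicates 1 and 3, 7 and 8 in WT TM replicates 1 and 3, and 4, 10 and 4 in TPdh-/- TM replicates 2, 3 and 4. It was also the region of the loci held by the most libraries, and it belongs to no receptor segment. Among receptor segments, the region after Tcrg-C2 (chr13:19303987-19304513), 222 bp past the end of that constant gene, had pileups of 10 and 4 in TPdh-/- TE replicates 1 and 2, 8 in WT TM replicate 2 and 3 in TPdh-/- TM replicate 1. The region 1686 bp from Trgj1 (chr13:19208449-19209169) had 7 in TPdh-/- TE replicate 2 and 12 in TPdh-/- TM replicate 1. No WT TE library held either. The region before Tcrg-V7, chr13:19161292-19162737, lay 15814 bp from the segment and had 10 in WT TE replicate 2, 3 in TPdh-/- TE replicate 3, and 14 and 6 in TPdh-/- TM replicates 3 and 4. The region 2682 bp from Tcrg-V4 (chr13:19182286-19182706) had 10 in WT TE replicate 3, 7 in WT TM replicate 1 and 3 in TPdh-/- TM replicate 2. The 4 intervals between a J gamma segment and its constant gene held no peak in any library. They are 2345 to 3707 bp long, and with 198 regions per Mb in the genome few would fall in them. A peak lay within 1000 bp of the start of 4 of 7 V gamma segments, in 1 library each. Of protein-coding genes 26.5% had one in no library, and neither count was tested.

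**Figure D4:**
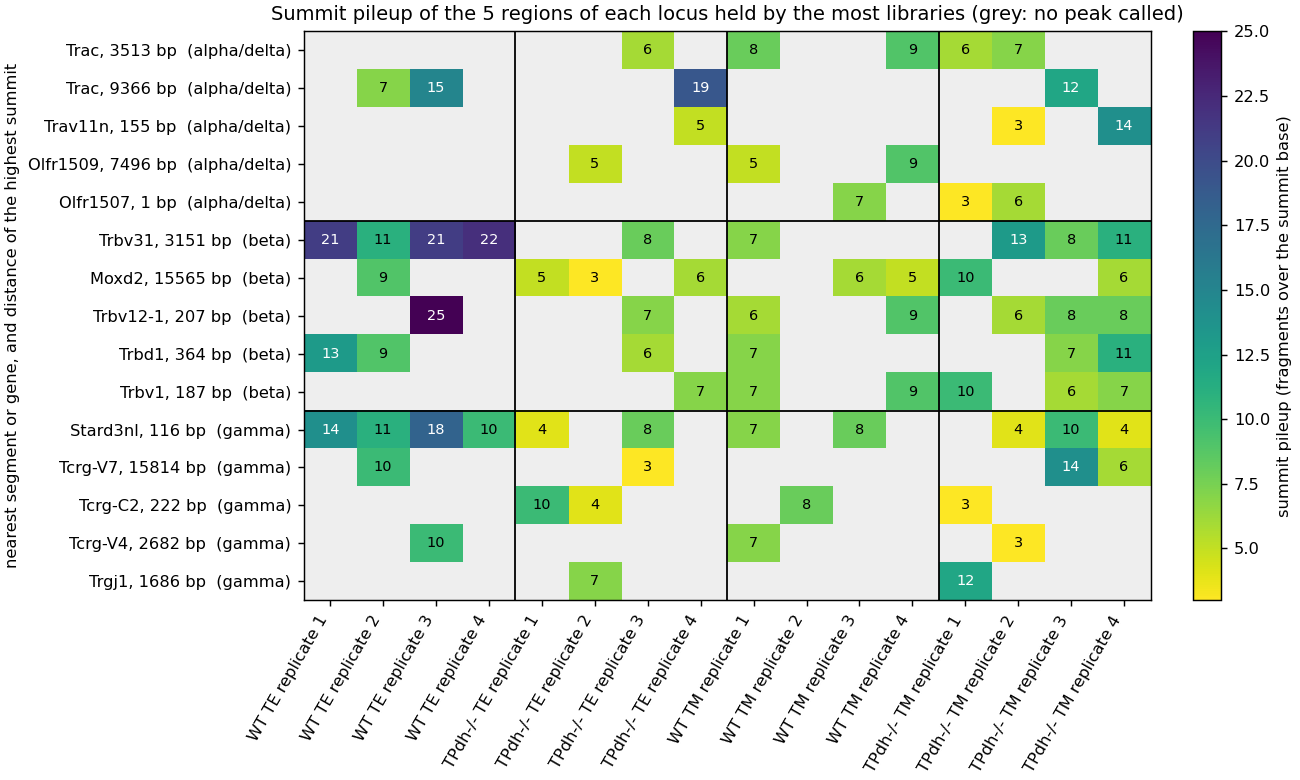
Summit pileup (colour and number, fragments over the summit base) in each of the 16 libraries (columns) for the 5 regions of each locus held by the most libraries (rows, named by the nearest segment or gene start and its distance), with grey where no peak was called. WT TE libraries share the Trbv31 row (the region after Trbc2) and the Stard3nl row, where all 4 have a peak, and the other rows are filled by scattered libraries.

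Genes of other families share the windows, and 26.5% of all protein-coding genes had a promoter peak in no library. Of 14 trypsinogen-like genes, a family of serine proteases, between V beta segments, 10 had no promoter peak in any library and the other 4 (Prss58, 1700074P13Rik, Try5 and Prss3) had one in 2 libraries each. The 4 olfactory receptor genes beside Trav1 had one in 1 to 3 libraries, with the most at Olfr1507, whose region chr14:52494831-52495359 had pileups of 7 in WT TM replicate 3, and 3 and 6 in TPdh-/- TM replicates 1 and 2. Another region, chr14:52457850-52458125, was 7496 bp from the start of Olfr1509 and had pileups of 5 in TPdh-/- TE replicate 2, and 5 and 9 in WT TM replicates 1 and 4. Moxd2 had a promoter peak in 1 library. A region 15565 bp from its start (chr6:40871850-40872221) was held by 8 libraries, with pileups of 9 in WT TE replicate 2, 5, 3 and 6 in TPdh-/- TE replicates 1, 2 and 4, 6 and 5 in WT TM replicates 3 and 4, and 10 and 6 in TPdh-/- TM replicates 1 and 4. Its libraries came from all groups.

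Of the genes that act on these loci or pair with their products, 8 were looked up, and their promoters were held in 14 of 128 combinations of gene and library (10.9%, against 20.3% for all protein-coding genes). Among 21938 protein-coding genes, 26.5% had a promoter peak in no library and the median gene had one in 2. Rag1 and Dntt, which encodes the polymerase that adds bases at the joints, had none, and Rag2 had one in 1 TPdh-/- TE library. Ptcra, the partner of the beta chain in thymocytes, had none. The CD3 genes Cd3d, Cd3e, Cd3g and Cd247 had one in 6, 2, 3 and 2 libraries. The 3 CD3 genes Cd3d, Cd3e and Cd3g lie beside each other on chromosome 9.

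The local background of the peaks differed along the loci. A background at least 1.3 times the coverage of the library was found at 22 of 55 peaks around the D, J and C segments of alpha/delta (40.0%), at 2 of 162 around its V segments (1.23%), at 10 of 23 around the D, J and C segments of beta (43.5%) and at 34 of 170 around its V segments (20.0%). Over all peaks of the genome the share was 17.1%. In gamma it was 3 of 27 around J and C segments (11.1%) and 1 of 13 around V segments (7.69%). These are descriptions, since the caller sets the local background from the reads around each peak.

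Relative density was compared between the genotypes in TM and in TE. With 4 against 4 libraries the exact permutation test gives p of at least 0.0286, which adjusted over the 12 tests is 0.343 for a single difference, so no difference could pass alone and none is shown to be absent. Alpha/delta in TM was 0.474 ± 0.137 (SD, n = 4) for TPdh-/- against 0.651 ± 0.132 (SD, n = 4) for WT, a difference of -0.177 (exact permutation test, two-sided, 70 arrangements, p = 0.114, adjusted over 12 tests p = 0.343). This difference turned to 0.210 with only peaks of −log10 q of at least 5 and to 0.312 in equal-sized lists. The TE values were 0.480 ± 0.107 (SD, n = 4) for TPdh-/- and 0.253 ± 0.265 (SD, n = 4) for WT, a difference of 0.227 (exact permutation test, adjusted p = 0.392), which was 0.351 without WT TE replicate 3 and 0.142 without WT TE replicate 4. Beta was 1.05 ± 0.210 (SD, n = 4) in TPdh-/- TM and 1.07 ± 0.295 (SD, n = 4) in WT TM (exact permutation test, adjusted p = 0.971), and 1.49 ± 0.352 (SD, n = 4) in TPdh-/- TE and 1.69 ± 0.937 (SD, n = 4) in WT TE (exact permutation test, adjusted p = 0.971). The last difference, -0.200, turned to 0.266 without WT TE replicate 3. Gamma was 0.917 ± 0.213 (SD, n = 4) in TPdh-/- TM and 1.47 ± 0.630 (SD, n = 4) in WT TM, a difference of -0.553 (exact permutation test, adjusted p = 0.343), which was -0.247 without WT TM replicate 3. It was 1.25 ± 0.582 (SD, n = 4) in TPdh-/- TE and 3.53 ± 3.83 (SD, n = 4) in WT TE (exact permutation test, adjusted p = 0.392), and without WT TE replicate 3 that difference was -0.374 instead of -2.28. The groups also differed in background coverage, and with coverage as a covariate the alpha/delta difference in TM was -0.0594, while the beta and gamma differences between genotypes all turned to above 0.

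The same limit held between TM and TE. In WT, alpha/delta was higher in TM than in TE by 0.398 (exact permutation test, p = 0.0571, adjusted p = 0.343). The 4 WT TM values ran from 0.469 to 0.773 and the 4 WT TE values from 0 to 0.625, so the groups overlapped. Without WT TE replicate 3 the difference was 0.522 (exact permutation test, adjusted p = 0.274). Beta in WT was lower in TM by a difference of -0.618 (exact permutation test, adjusted p = 0.392) and gamma by -2.06 (exact permutation test, adjusted p = 0.495). Without WT TE replicate 3 these differences were -0.152 and -0.154. With background coverage as covariate they turned to 0.447 and 1.63. In TPdh-/-, alpha/delta differed by -0.00641 between TM and TE (exact permutation test, adjusted p = 0.971) and beta by -0.431 (exact permutation test, adjusted p = 0.343), which was -0.282 without TPdh-/- TE replicate 2. Gamma differed by -0.334 (exact permutation test, adjusted p = 0.495), which was -0.0585 without TPdh-/- TE replicate 1. The genotype effect on alpha/delta in TM minus that in TE was -0.404 (permutation test with residuals of an additive model, p = 0.0240, adjusted over 3 loci p = 0.0720). By the same permutation test it was 0.187 in beta (adjusted p = 0.772) and 1.73 in gamma (adjusted p = 0.686).

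No region of the loci separated the groups. For this, every library of one group and no library of the other had to hold the region. Of all regions, 0.0304% did so for TPdh-/- TM against WT TM, 0.0389% for TPdh-/- TE against WT TE, 0.0587% for WT TM against WT TE and 0.0243% for TPdh-/- TM against TPdh-/- TE. Of the receptor regions, 0 of 260, 0 of 169, 0 of 110 and 0 of 319 did so in the same order, a count with no p-value. At those shares of the genome less than 1 region would be called among the members of each comparison. The region after Trbc2 came nearest, since it was held by 4 WT TE libraries, by 1 TPdh-/- TE library and by 1 WT TM library. It separated the groups once TPdh-/- TE replicate 3 was left out (0.160% of all regions did so then), and again in WT TM against WT TE once WT TM replicate 1 was left out (0.266%). In TPdh-/- TM against TPdh-/- TE, a region 1957 bp from the start of Prss58 (chr6:40902071-40902728), held by 3 TPdh-/- TE libraries, 1 WT TE library and no TM library, separated the groups once TPdh-/- TE replicate 3 was left out (0.0685%).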

How the data were processed

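Tagmented DNA of 16 libraries of mouse CD8+ T cells was sequenced by the authors, and each library was placed in its group and replicate by its title. The authors, per the methods of the study, trimmed read pairs with Trimmomatic, aligned them to GRCm38 with BWA MEM (0.7.17), removed ambiguous and split alignments and reads in blacklisted places, and called peaks with MACS2 (2.2.7.1) from paired fragments with the mouse genome size. Any control library is not given in the sources used here. Each deposited list belongs to 1 library. The deposited score is 10 times the −log10 q-value without decimals, the deposited fold enrichment is the ratio of summit pileup to local background with 1 added to both, and the deposited −log10 p-value and −log10 q-value belong to single peaks. None was scaled between libraries.

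Fold and p-value together fix the whole-number pileup and the local background, which were solved for all but 64 peaks (miss under 0.005) and tested on simulated peaks. Background coverage was the lowest 1% of local backgrounds in a library. Read totals were not analysed here. Peaks outside the autosomes, X and Y (81 mitochondrial) were left out. Peaks were placed by summit, and lengths were assembled bases of 2648 Mb in the genome. Segments came from GENCODE M21, sequence from RefSeq of the same build. Igk was taken without 2 orphan segments far from the others, although the plan ran from the first to the last segment.

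Densities per library were compared by exact permutation (70 arrangements) or exact sign changes (65536 over 16 libraries), two-sided, with Benjamini-Hochberg adjustment and a threshold of 0.05, in Python 3.11.15 with numpy 2.4.6, pandas 2.3.3 and scipy 1.17.1. Alternatives were a stricter q-value, equal-sized lists, each library left out, a replicate block, background coverage as covariate (an approximate test), other locus limits, another base, unique length and contiguous blocks. Named items were, in each locus, the 5 regions held by the most libraries and the region with the highest pileup, every separating region, the enhancer and J to C intervals, the Trav14 and Trbv12 families, other genes in the windows, and lists of recombination, CD3 and cell type marker genes. The loci, lists and rules were chosen with earlier results of these data known. The region near Prss58, single segments outside the 2 families and the d and n copies were chosen after their values were seen. One gene of the marker lists is not reported here. Replicate numbers did not pair libraries.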

Additional observations from a re-analysis of the deposited data

Results flagged for a closer look

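Among 12 combinations of locus and group, 3 held a library far from the other 3 of its group. For values of equal spread chance alone marks about 1 in 20 groups in this way. The values here rest on unequal numbers of peaks, so no excess over chance is read from the count. In beta and in gamma the marked library was WT TE replicate 3, with relative densities of 3.08 and 9.25. That library has the shortest list, 2290 peaks, and its values rest on 2 peaks in each of these loci. In alpha/delta it was TPdh-/- TE replicate 1, with 0.321, where the other libraries of the group had 0.522, 0.546 and 0.532.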

How the results depend on the processing

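The deficit of alpha/delta, the excess of beta over alpha/delta and that of gamma over alpha/delta kept direction and call under every alternative run for them. The differences between loci were not run with annotated limits, with unique length or with the rest of the chromosome as base. Sizes moved: with only peaks of −log10 q of at least 5 and in equal-sized lists, beta over alpha/delta went from 0.858 to 2.27 and 1.59, gamma over alpha/delta from 1.33 to 2.68 and 3.04, the beta excess over 1 from 0.323 to 1.49 and 1.02, and that of gamma from 0.793 to 1.90 and 2.47. With the stricter q-value, the difference in gamma between J and C and V turned to 2.25 (exact sign-change test, adjusted p = 0.0234), and the differences of TPdh-/- TM from WT TM turned to 0.210 in alpha/delta and 0.950 in gamma, and that of TPdh-/- TM from TPdh-/- TE to 0.0156 in alpha/delta. In equal-sized lists the difference of TPdh-/- TM from WT TM turned to 0.312 in alpha/delta and 1.16 in beta, that of TPdh-/- TM from TPdh-/- TE to 0.771 in beta and 1.16 in gamma, and that of J and C from V to 0.308 in gamma, while 3 calls were lost with fewer peaks: D, J and C against V in alpha/delta (1.86) and in beta (-0.777), and receptor against immunoglobulin loci (0.403, exact sign-change test, p = 0.0674). With background coverage as covariate, 6 differences without a call turned, in beta to 0.104 (TPdh-/- TM against WT TM), 0.0647 (TPdh-/- TE against WT TE) and 0.447 (WT TM against WT TE), and in gamma to 0.489, 0.338 and 1.63 in the same order. Annotated limits left gamma at 0.144 over the genome level, the rest of the chromosome as base left beta at 0.259 and gamma at 0.887, and contiguous blocks turned the beta D, J and C difference to 0.184. The causes were not tested.

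Leaving out each library in turn gave ranges of -0.395 to 0.266 (TPdh-/- TE minus WT TE) and -0.123 to 0.0739 (TPdh-/- TM minus WT TM) in beta, -0.0596 to 0.0512 (TPdh-/- TM minus TPdh-/- TE) in alpha/delta, -1.18 to 0.0338 for J and C minus V in gamma, and 0 to 1 separating regions in every comparison except TPdh-/- TM against WT TM, which stayed at 0. The pooled excess over 1 ranged from 0.206 to 0.362 in beta and from 0.295 to 0.869 in gamma. Same-numbered libraries of 2 groups had correlations of their deviations between -0.18 and 0.25 over 16 pairs, 2 of them over 0.1, so they were not taken as paired. With the replicate block the alpha/delta difference of TPdh-/- TM from WT TM was again -0.177 (exact paired sign-change test, p = 0.250, where 0.125 is the smallest possible), and no call changed. Few peaks, above all in WT TE with 25 in the loci, limit the precision of the densities, although background coverage was highest in WT TE.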
